A study of Mus musculus with 4 samples.

Results

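Genes of the intestinal epithelium were followed in the liver of mice that had received a short-chain fatty acid or saline into the cecum, at the start of the large intestine. The group holds 10 genes, chosen by symbol with their values in these data already known, out of 18820 genes that had probe sets of their own on the array. They are Muc2, Muc3, Muc13, Lypd8, Mptx1, Car1, Sprr2a1, Phgr1, Krt19 and Cldn3, and all 10 were measured. The values that led to the choice were above all the high levels of several of them in the butyrate pool, so every difference given for them is a description and none was tested.

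The study asked how liver gene expression compared between infusions of the main products of bacterial fermentation in the gut. There were 4 groups of male C57Bl/6J mice, aged 16 to 17 weeks. All were fed a semi-synthetic diet with palm oil during 6 weeks, and all were infused through a catheter placed in the cecum. The butyrate group received sodium [2,4-13C2]butyrate, the propionate group sodium [2-13C]propionate, the acetate group sodium [1-13C]acetate and the control group phosphate-buffered saline, all for 6 h. The acids, which differ in the length of their carbon chain, had a concentration of 0.3 M and flowed at 0.2 ml/h, so that each mouse received 2.4 mmol/h/kg. Liver RNA was pooled within each group, from 4 butyrate, 6 propionate, 6 acetate and 6 control mice, and each pool was hybridised to 1 array. There was thus 1 measurement per group, with no spread between replicates. The butyrate pool had the fewest mice, and each of its livers made up a larger part of the RNA.

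The epithelium of the large intestine is a single layer of absorptive colonocytes and mucus-secreting goblet cells. Goblet cells release Muc2, the gel-forming mucin from which the mucus layer is built, while colonocytes carry membrane-bound mucins such as Muc3 and Muc13 on their surface. Liver parenchyma has no such mucosa, but the bile ducts are lined by a simple epithelium that shares keratins and junction proteins with the gut. Of the 10 genes, Krt19 is also a marker of bile duct cells, Cldn3 also belongs to tight junctions of the liver, and Car1 is also abundant in red cells.

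Expression is given as log2 values from RMA, which removes background, equalises the distributions of the arrays and combines probes into probe sets. Array background was read from 1157 olfactory and vomeronasal receptor genes, families not used by liver, whose 95th percentile lay between 4.15 and 4.18 in the 4 pools. A second mark, the level floor of 5.55, is the median over all genes of their mean over the 4 arrays. Between 2 pools the log2 differences of the receptor genes had an SD of 0.16 to 0.18 across genes, which served as a guide to array noise and is not a spread between animals. The liver label was checked against 12 hepatocyte genes, all at or above the floor in every pool, among them Alb (13.4 in the butyrate pool and 13.3 in the control pool) and Apoa1 (13.4 in both), whose median log2 difference between those pools was 0.012. Any pair of arrays had a Pearson's r of 0.990 to 0.996 over the 9410 genes that reached the floor (genes are not independent replicates).

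Promoter sequences, from 250 bases before to 50 bases after the annotated start, are shown for Muc2 and Lypd8, the 2 genes with the highest ratio of butyrate to control, for Mptx1, and for Cldn3, which was level across the pools. They come from RefSeq (GRCm38.p6), are written 5′ to 3′ on the strand of the gene, and carry in capitals, on either strand, 2 kinds of match. One is TTTAT, the core of sites for Cdx factors, the homeobox regulators of intestinal identity. The other is the GATA factor motif whose letters are spelled out after the sequences.
Muc2, chr7:141690090-141690389, plus strand: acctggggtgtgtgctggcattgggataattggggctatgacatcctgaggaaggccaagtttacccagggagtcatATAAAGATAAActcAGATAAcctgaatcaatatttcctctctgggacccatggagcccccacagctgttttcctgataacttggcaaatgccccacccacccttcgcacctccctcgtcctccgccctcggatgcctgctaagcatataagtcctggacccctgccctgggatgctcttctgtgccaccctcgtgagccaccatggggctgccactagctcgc
Lypd8, chr11:58378782-58379081, plus strand: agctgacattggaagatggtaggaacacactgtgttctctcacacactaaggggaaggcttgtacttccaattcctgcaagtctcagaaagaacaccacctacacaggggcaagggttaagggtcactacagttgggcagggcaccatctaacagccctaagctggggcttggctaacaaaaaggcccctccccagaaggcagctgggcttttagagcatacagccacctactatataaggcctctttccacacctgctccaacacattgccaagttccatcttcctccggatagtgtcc
Mptx1, chr1:174330268-174330567, plus strand: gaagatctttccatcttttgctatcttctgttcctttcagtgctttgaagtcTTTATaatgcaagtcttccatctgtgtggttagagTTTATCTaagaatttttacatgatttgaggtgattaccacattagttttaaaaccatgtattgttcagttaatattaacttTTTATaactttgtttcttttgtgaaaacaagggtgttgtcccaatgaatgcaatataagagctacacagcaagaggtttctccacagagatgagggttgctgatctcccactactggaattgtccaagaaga
Cldn3, chr5:134985964-134986263, plus strand: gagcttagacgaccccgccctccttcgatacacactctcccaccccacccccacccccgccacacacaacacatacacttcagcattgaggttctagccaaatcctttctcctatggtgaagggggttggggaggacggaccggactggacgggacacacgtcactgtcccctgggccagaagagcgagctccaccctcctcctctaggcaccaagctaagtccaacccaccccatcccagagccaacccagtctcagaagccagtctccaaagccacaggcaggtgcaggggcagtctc

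Entries existed for 8 of the 10 genes; Car1 and Krt19 had none. In the first entry of each gene, TTTAT or its reverse complement was found for 4 of 8 (Muc2, Muc3, Muc13 and Mptx1), against 40.0% of 32841 promoter windows of the same length. The GATA factor motif AGATAA was found for 2 of 8 (Muc2 and Mptx1), against 11.2% of windows. In Muc2 the sites are crowded, with AGATAA at 169 to 164 and again at 159 to 154 bases before the start, the first of them overlapping a TTTAT match on either side. The longer HNF4 motif CAAAGTNCA, searched on both strands, was in none of the 8 first entries and in 1.41% of windows. TATAAA, each copy of which encloses a whole TTTAT match on the opposite strand, was in the windows of Muc2 and Mptx1 and in 13.6% of all. The windows of Lypd8 and Cldn3 printed above hold no match to any of the 4 motifs. Of second entries, not printed, that of Lypd8 holds 1 AGATAA and that of Muc13 holds 1 HNF4 motif.

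Muc2 was the gene with the highest ratio of the butyrate to the control pool among all 18820. It stood at 8.11 in the butyrate pool, 4.92 in the propionate pool, 5.22 in the acetate pool and 5.13 in the control pool. The butyrate pool was 7.89-fold above control and 7.44-fold above the acetate pool, the highest of the others, while the other 3 pools lay within 0.30 of one another on the log2 scale. Muc2 was below the level floor in those 3 pools and above the receptor background in all 4.

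Muc3 and Muc13, the membrane-bound mucins, had the same pattern at lower levels. Muc3 stood at 6.54 in the butyrate pool, 4.07 in the propionate pool, 4.55 in the acetate pool and 4.40 in the control pool, 4.42-fold higher with butyrate than in control. Muc13 stood at 5.12 in the butyrate pool, 3.47 in the propionate pool, 3.81 in the acetate pool and 3.66 in the control pool, 2.76-fold higher with butyrate than in control. In the control pool Muc13 was within the receptor background, so the size of that ratio is not exact. For both genes, as for Muc2, the order of the pools was butyrate, acetate, control, propionate.

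Of 8 other measured mucins, none was at least 1.5-fold higher with butyrate than in control and 1 was at least 1.5-fold lower, with a median log2 difference of -0.023. None of the 8 reached the level floor in either pool. The lower one was Muc6, a gel-forming mucin of stomach and pancreatic ducts. It stood at 4.02 in the butyrate pool, 4.23 in the propionate pool, 4.31 in the acetate pool and 4.82 in the control pool, lower with each acid. With butyrate Muc6 was within the receptor background, so the size of that difference is not exact. The transmembrane mucin Muc1 (4.48 in the butyrate pool, 5.01 in control) and the airway and stomach mucins Muc5b (3.55 in the butyrate pool, 3.58 in control) and Muc5ac (3.81 in the butyrate pool, 3.83 in control) were not higher either. Muc5b and Muc5ac were within the receptor background in every pool.

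Lypd8 encodes a membrane-anchored protein of the colon surface that in mice binds flagellated bacteria and keeps them away from the epithelium. It stood at 8.61 in the butyrate pool, 5.48 in the propionate pool, 5.77 in the acetate pool and 5.64 in the control pool. The butyrate pool was 7.85-fold above control, the second highest ratio of all genes. Of 8 other measured Lypd and Ly6 genes none was at least 1.5-fold higher with butyrate than in control. The nearest to that mark on the higher side was Ly6d, a marker of squamous epithelium, at 6.22 in the butyrate pool, 7.03 in the propionate pool, 7.90 in the acetate pool and 5.93 in the control pool, highest with acetate.

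Mptx1, a pentraxin of the gut mucosa, stood at 4.71 in the butyrate pool, 3.32 in the propionate pool, 3.25 in the acetate pool and 3.37 in the control pool. It was 2.52-fold higher with butyrate than in control, and it passed the receptor background in the butyrate pool only.

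Car1 is a cytosolic carbonic anhydrase of colonocytes and red cells. It stood at 8.82 in the butyrate pool, 6.52 in the propionate pool, 6.73 in the acetate pool and 6.93 in the control pool, 3.72-fold higher with butyrate than in control. Unlike the mucins it was above the level floor in all pools. Its membrane-anchored relative Car4, also of colonocytes, stood at 6.56 in the butyrate pool, 4.70 in the propionate pool, 4.92 in the acetate pool and 4.88 in the control pool, 3.20-fold higher with butyrate than in control. Car2, made by colonocytes and red cells alike, was at 6.56 in the butyrate pool and 5.88 in the control pool. Of the 10 carbonic anhydrases measured beside Car1, 2 were at least 1.5-fold higher with butyrate than in control (Car4 and Car2) and 1 was lower, the mitochondrial Car5b (5.98 in the butyrate pool, 6.60 in control).

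Because Car1 is shared with red cells, the other red cell genes are given beside it. All 6 that were measured lay above control with butyrate, 2 of them by at least 1.5-fold, and their median log2 difference was 0.34. The anion exchanger Slc4a1 stood at 6.54 in the butyrate pool, 5.71 in the propionate pool, 5.07 in the acetate pool and 5.21 in the control pool. Alas2, the first enzyme of haem synthesis in red cells, was nearly level, at 9.27 in the butyrate pool and 9.13 in the control pool. Summed on the linear scale, the 6 genes reached 851 units in the butyrate pool, 773 in the propionate pool, 674 in the acetate pool and 696 in the control pool, of which Alas2 alone made up 72.5% with butyrate and 80.6% in control. The other 5 summed to 234 units in the butyrate pool, 164 in the propionate pool, 132 in the acetate pool and 135 in the control pool. The part of red cells in the Car1 value was not tested.

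Sprr2a1 encodes a small proline-rich protein of the cornified envelope of skin that is also made by the gut epithelium. It stood at 6.73 in the butyrate pool, 5.46 in the propionate pool, 5.59 in the acetate pool and 5.46 in the control pool, 2.42-fold higher with butyrate than in control. The 2 probe sets of this symbol held identical values, so they count as 1 measurement, and close copies of the gene (Sprr2a2 and Sprr2a3) make the assignment to this member uncertain. Of 13 other Sprr and cornified envelope genes none was at least 1.5-fold higher with butyrate than in control and 2 were lower. These were Sprr3 (3.47 in the butyrate pool, 4.84 in control) and loricrin, Lor (5.05 in the butyrate pool, 6.05 in control). Both were lower in the propionate and acetate pools too (Sprr3 at 3.93 and 4.14, Lor at 4.55 and 5.15). Sprr3 was within the receptor background in each acid pool, so the size of its difference is not exact.

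The remaining 3 genes did not differ by 1.5-fold between any pair of pools. The largest difference among them was that of Krt19, 0.49 on the log2 scale between the butyrate and propionate pools. Phgr1, a small proline-, histidine- and glycine-rich protein of the gut epithelium, stood at 3.50 in the butyrate pool, 3.18 in the propionate pool, 3.12 in the acetate pool and 3.24 in the control pool, within the receptor background in every pool. The keratin Krt19 stood at 5.65 in the butyrate pool, 5.16 in the propionate pool, 5.55 in the acetate pool and 5.40 in the control pool. The claudin Cldn3 was level, at 8.64 in the butyrate pool, 8.59 in the propionate pool, 8.56 in the acetate pool and 8.65 in the control pool. Cldn3 was the one gene of the 10 that was not highest with butyrate. None of 15 measured claudins, Cldn3 included, differed by 1.5-fold between the butyrate and control pools.

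**Figure D1:**
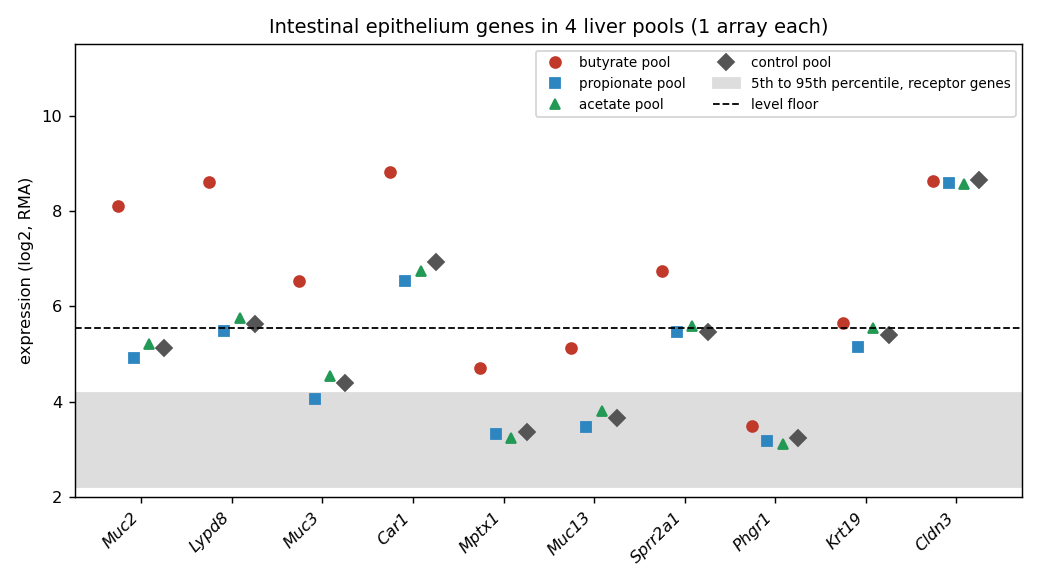
Expression (log2, RMA) of the 10 intestinal epithelium genes in the butyrate, propionate, acetate and control pools, 1 array each. The grey band spans the 5th to 95th percentile of olfactory and vomeronasal receptor genes (lowest and highest over the 4 pools) and the dashed line is the level floor of 5.55; for 7 genes the butyrate pool stands clear of the other 3, while Cldn3 lies between 8.56 and 8.65 in all of them.

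In all, 7 of the 10 genes were at least 1.5-fold higher in the butyrate pool than in the control pool, against 0.728% of all genes, and the same 7 passed 2-fold, against 0.143% of all genes. These shares are set side by side only as a description, since that contrast served to choose the genes. None was 1.5-fold lower (0.616% of all genes). The median log2 difference of the 10 was 1.40, against -0.0029 over all genes. With the level floor as the mark, 7 of the 10 genes lay at or above it in the butyrate pool, 2 in the propionate pool, 5 in the acetate pool and 3 in the control pool. In the butyrate pool Muc13, Mptx1 and Phgr1 remained below it. In a bulk sample, more cells of a type and more RNA per cell cannot be told apart.

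The acetate and propionate pools lay close to the control pool. With acetate, 6 of the 10 genes were above control and 4 below, and none differed by 1.5-fold (0.696% of all genes were at least 1.5-fold higher and 0.494% lower). The differences ran from -0.19 for Car1 to 0.15 for Muc3, and 1 of the 10 exceeded the SD of the receptor genes. With propionate, 9 of the 10 were below control, none by 1.5-fold (0.489% of all genes were at least 1.5-fold lower and 0.776% higher). The differences ran from -0.40 for Car1 to 0.00026 for Sprr2a1, and 5 exceeded that SD. The propionate pool was the lowest of the 4 for 6 genes (Muc2, Lypd8, Car1, Muc3, Muc13 and Krt19). These comparisons share the control pool.

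**Figure D2:**
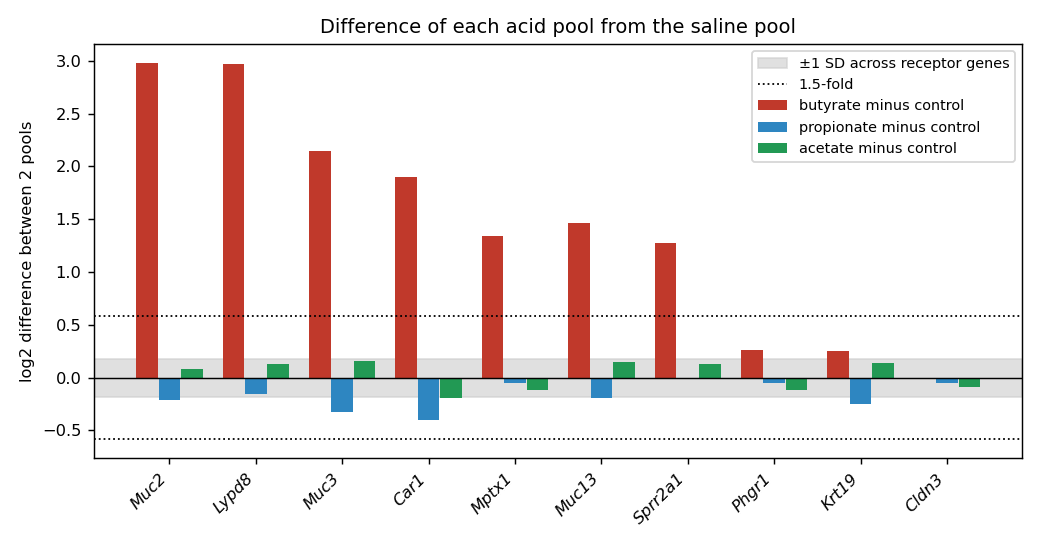
Log2 difference of each acid pool from the control pool for the 10 genes, 1 array per pool. The grey band is ±1 SD of the same difference across 1157 receptor genes (0.18, the largest of the 3 comparisons) and dotted lines mark 1.5-fold; 7 butyrate bars pass the upper line and no propionate or acetate bar passes either line.

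Set against one another at the same dose and time, the acids gave the same split. The butyrate array was the same one that was set against control, so the repeat is not independent. Butyrate was at least 1.5-fold above acetate for 7 of the 10 genes (0.914% of all genes, with 0.956% lower), and above propionate for the same number (0.425% of all genes, with 0.845% lower). All 10 genes were higher with butyrate than with acetate, and also than with propionate, by medians of 1.39 and 1.52 on the log2 scale. Muc2 was 9.17-fold and Lypd8 8.75-fold higher with butyrate than with propionate. Propionate and acetate differed from each other by 1.5-fold for none of the 10 (0.383% of all genes were higher with propionate and 0.213% lower), with 7 of the 10 lower with propionate. The largest of those differences was that of Muc3, at -0.48. With 1 pool per acid, none of these differences has an interval.

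The excess of the butyrate pool over the highest of the other 3 pools placed the genes among all others without the control pool being singled out. High levels of several of the genes in that same butyrate pool had led to their choice. Their high places were thus largely set beforehand and are a description only. An excess of at least 2-fold was found for 17 of 18820 genes (0.0903%). Of these, 7 were among the 10 genes and 4 were further genes of the gut lists, namely Clca1, Car4, Slc26a3 and Agr2. Muc2 and Lypd8 held the first 2 places, Muc3 and Car1 places 6 and 7, Mptx1 and Muc13 places 10 and 11, and Sprr2a1 place 14. Phgr1 was at place 265, Krt19 at 1571 and Cldn3 at 5415. For 8 of the 10 the excess was larger than the whole range of the gene over the other 3 pools. Krt19, with an excess of 0.10 and a range of 0.39, and Cldn3, with none, were the exceptions.

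**Figure D3:**
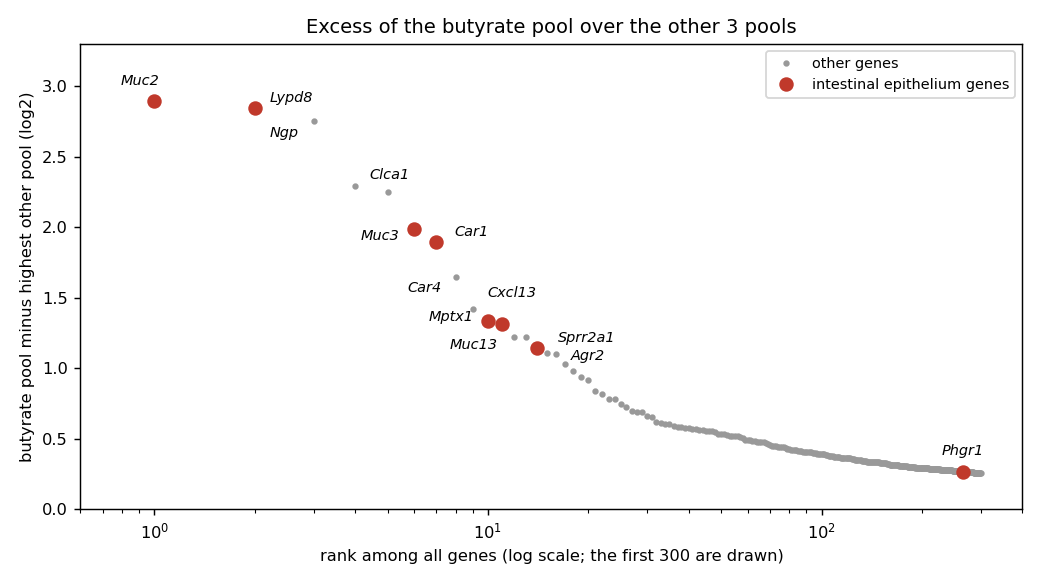
Excess of the butyrate pool over the highest of the propionate, acetate and control pools (log2) against rank among all 18820 genes on a log scale; the first 300 are drawn. Red points are intestinal epithelium genes, from 2.89 for Muc2 at rank 1 to 0.27 for Phgr1 at rank 265; Krt19 and Cldn3 rank too low to be drawn, and selected other genes are labelled.

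Among the 12 highest genes of that ranking that lay at or above the floor in the butyrate pool, those outside the group were mostly of 2 kinds. Predicted or unnamed genes, olfactory and vomeronasal receptor genes and small RNAs were left out of this list. The floor was applied in the same pool that the ranking favours. Clca1, Car4, Agr2, S100a8 and Ltf were below it in every other pool, so this list is a description only. Clca1, Car4 and Agr2 are genes of the gut epithelium. Ngp (8.54 in the butyrate pool, 5.54 in the propionate pool, 4.40 in the acetate pool and 5.79 in the control pool), S100a8 and Ltf are genes of neutrophil granules and cytoplasm. The last was Cxcl13, a chemokine that attracts B cells, at 9.85 in the butyrate pool, 8.43 in the propionate pool, 7.93 in the acetate pool and 7.93 in the control pool. S100a8 stood at 6.19 in the butyrate pool and 4.96 in control, and Ltf at 6.20 in the butyrate pool and 4.99 in control.

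Muc2 and Lypd8 were nearest to each other. Likeness was measured as the Euclidean distance of the 3 log2 differences from control, over 9480 genes at or above the floor in at least 1 pool. Predicted or unnamed genes, receptor genes and small RNAs were again left out. Muc2, Muc3 and Clca1 reached the floor in the butyrate pool only, so they were compared because of their level there. The distance from Muc2 to Lypd8 was 0.072. The next nearest to Muc2 were Muc3 (0.85), Clca1 (0.87), Car1 (1.13) and Cxcl13 (1.28), and the same 4 genes followed in the same order for Lypd8 (0.85, 0.89, 1.15 and 1.25). The measure is dominated by the butyrate difference, and the 3 differences share the control pool.

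Other genes of the gut epithelium were read from 8 lists of goblet cells, colonocytes, epithelium in general, small intestinal enterocytes, Paneth cells, enteroendocrine cells, tuft cells and crypt stem cells. Together they held 78 measured genes beside the 10. The lists were chosen with earlier results of these data known, so their counts are set beside those of all genes only as a description. With butyrate 9 of the 78 were at least 1.5-fold above control and 2 below, where all genes gave 0.728% and 0.616%. With acetate 1 was above and 2 below (all genes 0.696% and 0.494%), and with propionate 0 above and 2 below (all genes 0.776% and 0.489%). The median log2 difference of the 78 was 0.035 with butyrate, and 67 of them differed from control by less than 1.5-fold. All 9 higher genes were highest in the butyrate pool, where 7 of them were above the receptor background; Slc9a3 and Reg3g were within it in every pool.

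The goblet cell genes among them were Clca1 and Agr2. Clca1, a secreted protein that acts on the mucus gel, stood at 6.65 in the butyrate pool, 4.28 in the propionate pool, 3.92 in the acetate pool and 4.35 in the control pool, 4.91-fold higher with butyrate than in control. Agr2, a disulfide isomerase needed to fold Muc2, stood at 5.98 in the butyrate pool, 4.29 in the propionate pool, 4.32 in the acetate pool and 4.88 in the control pool. Of the other 10 goblet cell genes measured beside Muc2 none differed by 1.5-fold between the butyrate and control pools. Examples are the trefoil peptide Tff3, at 10.5 in the butyrate pool and 10.2 in control, and the lectin Zg16. The latter stood at 10.1 in the butyrate pool, 9.68 in the propionate pool, 9.55 in the acetate pool and 10.2 in control. Unlike Muc2, both were far above the level floor in every pool, and which cells made them was not tested. Retnlb (3.16 in the butyrate pool, 2.93 in control) and the regulator Atoh1 (3.89 in the butyrate pool, 3.80 in control) were within the receptor background in both of these pools.

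Colonocyte genes were also among them. Beside Car4, the chloride and bicarbonate exchanger Slc26a3 stood at 4.57 in the butyrate pool, 3.14 in the propionate pool, 3.47 in the acetate pool and 3.34 in the control pool, above the receptor background with butyrate only. Guca2a, the hormone guanylin, stood at 5.63 in the butyrate pool, 4.63 in the propionate pool, 4.65 in the acetate pool and 4.45 in the control pool. The sodium and proton exchanger Slc9a3, within the receptor background, stood at 4.15 in the butyrate pool, 3.67 in the propionate pool, 4.02 in the acetate pool and 3.48 in the control pool. Of 11 measured colonocyte genes beside the members, 4 were at least 1.5-fold higher with butyrate than in control and 1 lower, with a median of 0.35. The lower one was the water channel Aqp8, which hepatocytes also make, at 7.43 in the butyrate pool, 7.70 in the propionate pool, 7.70 in the acetate pool and 8.12 in the control pool.

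The other higher genes were Epcam, an adhesion protein of gut and bile duct epithelium (6.12 in the butyrate pool, 5.20 in the propionate pool, 5.55 in the acetate pool and 5.48 in the control pool), and the antibacterial lectins Reg3g (4.07 in the butyrate pool, 3.29 in control, both within the receptor background) and Reg3b (5.09 in the butyrate pool, 4.34 in control). Of 12 enterocyte genes none was at least 1.5-fold higher with butyrate than in control. The intestinal phosphatase Alpi was lower, at 4.32 in the butyrate pool, 4.07 in the propionate pool, 4.11 in the acetate pool and 5.20 in the control pool. Lactase, Lct (4.55 in the butyrate pool, 4.38 in control), and sucrase-isomaltase, Sis (2.73 in the butyrate pool, 3.24 in control), were not higher. Sis was within the receptor background in every pool. Of the 12 enterocyte genes, 5 reached the level floor in the butyrate pool and 5 in the control pool, among them Fabp1 at 12.5 in both. Which cells made these transcripts was not tested. None of the measured enteroendocrine (10), tuft (6) and crypt stem cell genes (6) differed by 1.5-fold between the butyrate and control pools. No enteroendocrine or tuft cell gene reached the level floor in either pool, so these counts do not show whether such cells differed. Of the crypt stem cell genes 3 reached it in each of these pools, and which cells made them was not tested.

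**Figure D4:**
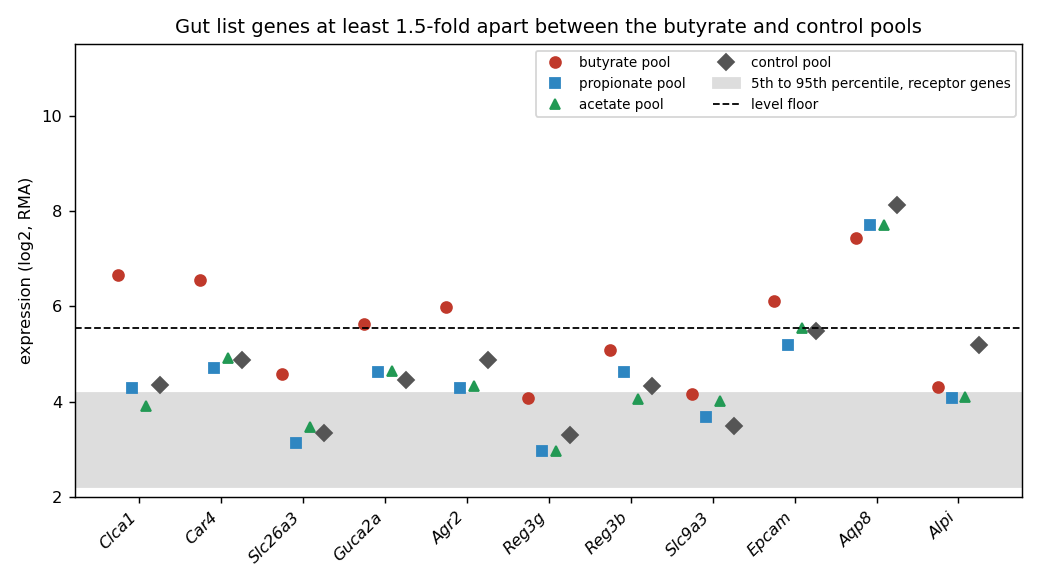
Expression (log2, RMA) in the butyrate, propionate, acetate and control pools, 1 array each, of the 11 other gut list genes that differed by at least 1.5-fold between the butyrate and control pools. Grey band and dashed line are the receptor background and the level floor; Clca1 and Car4 stand at 6.65 and 6.56 with butyrate and below 5 in the other pools, while Aqp8 and Alpi are highest in the control pool.

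None of 12 intestinal transcription factors differed by 1.5-fold between the butyrate and control pools. Cdx2 stood at 3.46 in the butyrate pool, 3.52 in the propionate pool, 3.37 in the acetate pool and 3.10 in the control pool, within the receptor background, and Cdx1 at 5.19 in the butyrate pool and 5.21 in control. The epithelial factor Elf3, with the largest difference of the list, stood at 5.10 in the butyrate pool and 4.63 in the control pool. Nor did any of 10 enzymes of mucin glycosylation reach 1.5-fold, the largest difference being that of Gcnt1 (4.48 in the butyrate pool, 3.96 in control).

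Epithelia native to the liver and its surface were compared, because they share Krt19, Epcam and other genes with the gut. Of 9 measured bile duct genes beside Krt19, Epcam alone was at least 1.5-fold higher with butyrate than in control. Krt7 stood at 5.51 in the butyrate pool and 5.30 in control, and Sox9 at 6.69 in the butyrate pool and 6.74 in control. The median of the 9 was 0.10 with butyrate and 0.27 with acetate. None of 7 mesothelial genes beside Krt19 differed by 1.5-fold between the butyrate and control pools (median 0.017). Of 8 smooth muscle genes of the gut wall none was higher and 1 lower with butyrate, Des, which skeletal muscle also makes (6.17 in the butyrate pool, 6.92 in control). None of 7 measured genes of gut plasma cells differed by 1.5-fold between the butyrate and control pools. Among them Igha, the IgA heavy chain, was at 4.03 in the butyrate pool and 4.06 in control, both within the receptor background.

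Markers of other tissues moved in the same comparison. The 8 neutrophil genes were all above control with butyrate (4 by at least 1.5-fold, median log2 difference 0.69). Their summed linear level was 7953 units in the butyrate pool, 6527 in the propionate pool, 6331 in the acetate pool and 7410 in the control pool. Lcn2, which hepatocytes also make, was level and alone made up 90.5% of that sum with butyrate and 96.2% in control. The other 7 summed to 759 units in the butyrate pool, 249 in the propionate pool, 170.3 in the acetate pool and 282 in the control pool, 2.69-fold higher with butyrate than in control. The 11 skeletal muscle genes were all at least 1.5-fold lower with butyrate than in control (median -2.32). Myl1, a light chain of fast myosin, stood at 4.90 in the butyrate pool and 8.05 in control. Their sum was 373 units in the butyrate pool, 2049 in the propionate pool, 1723 in the acetate pool and 1788 in the control pool. All 9 pancreatic acinar genes lay below control with butyrate (median -0.36, none by 1.5-fold), with a sum of 7810 units in the butyrate pool, 6752 in the propionate pool, 5996 in the acetate pool and 10259 in the control pool. The part of these cells and tissues in the values of the gut genes was not tested. Pool, infusion and number of mice cannot be told apart, since each infusion was measured on 1 array.

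**Figure D5:**
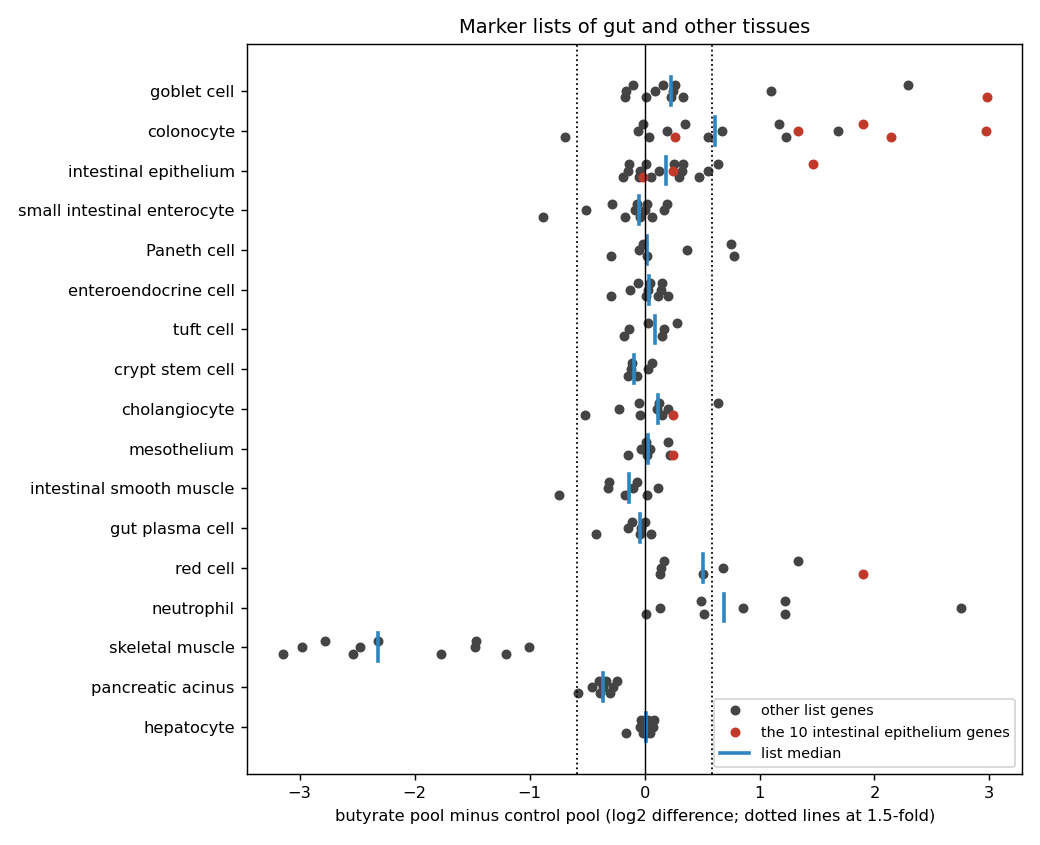
Log2 difference of the butyrate from the control pool for every measured gene of 17 marker lists, 1 array per pool. Red points are the intestinal epithelium genes, black points other list genes, blue bars the list medians, and dotted lines 1.5-fold. Colonocyte genes have a median of 0.61 with the members included and 0.35 without them. That of skeletal muscle genes is -2.32 and that of hepatocyte genes 0.012.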

How the data were processed

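Liver RNA of 22 mice was pooled into 4 samples and measured on 1 array each; per the labels' protocols, each mouse gave 500 ng of RNA. The authors deposited log2 values per probe set from RMA, per the submitters' processing notes; for its version and settings and for the build of the array design, the sources used here name none. Columns were matched to pools by accession.

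Gene symbols came from the platform annotation held by GEO. Of 35556 probe sets, 21218 had 1 symbol, 1881 several and 12457 none. Those of 1 symbol were averaged per symbol, giving 18820 genes (Python 3.11.15, pandas 2.3.3); probe sets with several symbols entered no comparison. Each comparison is a log2 difference of 2 arrays, 6 in all. With 1 array per group no test, standard error or p-value exists, and a difference was counted at 1.5-fold (0.58 on the log2 scale). The number of arrays limits the precision. The counting was tested on simulated data.

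The 10 genes and the 25 lists set beside them were chosen with earlier results of these data known. Named were all members, up to 5 genes per list in order of their absolute difference between butyrate and control with further list genes as examples chosen after their values were seen, the 12 highest by excess of the butyrate pool, and the 5 nearest to Muc2 and to Lypd8. The last 2 rankings skipped predicted or unnamed genes, receptor genes and small RNAs. Alternatives were cyclic loess (limma 3.58.1, R 4.3.3), median centring, the highest probe set per symbol, shared probe sets, a 2-fold mark, another background, list members above the floor, and the mean of the other 3 pools as comparator.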

Additional observations from a re-analysis of the deposited data

Results flagged for a closer look

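A probe set outside the comparisons, because it names Sprr2a1, Sprr2a2 and Sprr2a3 together, carried a signal above the control pool. It stood at 8.61 in the butyrate pool, 6.29 in the propionate pool, 6.43 in the acetate pool and 6.37 in the control pool, a log2 difference of 2.25 between the butyrate and control pools. The probe sets of Sprr2a1 alone differed by 1.27. Which of the 3 copies was measured cannot be told from these values.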

How the results depend on the processing

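No paired analysis was possible because each group is 1 pool on 1 array, and for the same reason no replicate could be left out. A value was taken as moved when it shifted by more than the SD of the receptor genes in that comparison. No called value changed sign. The count of 7 genes higher with butyrate was the same with the 2-fold mark, cyclic loess, median centring, the highest probe set and the mean of the other 3 pools as comparator. The butyrate difference of Muc2 ran from 2.97 to 3.02, of Lypd8 from 2.96 to 2.98 and of Sprr2a1 from 1.23 to 1.60, the last with the shared probe set included. With the other 3 pools averaged as comparator, the butyrate pool among them, 3 genes were 1.5-fold lower with acetate and 5 with propionate, where there had been 0. Against the 95th percentile of receptor genes as background, 6 genes lay above it in the propionate pool and 7 in the control pool. Keeping list genes with a mean above the floor left 1 to 5 genes in each list that moved, and a mean that holds the butyrate value admits genes for being high there. The butyrate median was then 0.37 for Paneth cell, -0.16 for transcription factor, -0.11 for keratin, 0.30 for cholangiocyte, 0.20 for mesothelium, -0.32 for smooth muscle and 0.86 for neutrophil genes. In 6 more lists some of the 10 genes passed, and the medians say nothing about the list. They were 2.98 for mucins (Muc2 alone) and 1.27 for Sprr (Sprr2a1 alone), both genes passing only through the butyrate pool, 0.97 for colonocyte, 1.01 for red cell, -0.011 for carbonic anhydrase and 0.29 for Lypd and Ly6 genes. Without the 10 genes, an alternative chosen after seeing the data, mucins and Sprr had no gene left, and the medians were -0.33 for colonocyte (2 genes, against 0.35 over all 11), 0.68 for red cell, -0.14 for carbonic anhydrase, 0.15 for Lypd and Ly6, 0.30 for cholangiocyte and 0.20 for mesothelium genes. With the mean of the other 3 pools as comparator it was -0.077 for cholangiocyte, 1.04 for neutrophil and 0.14 for pancreatic genes. Ratios of genes within the receptor background have no exact size.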

Other observations

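Some further epithelial genes, chosen after their values were seen, show how unevenly gut genes differed. The lectin Lgals4 of gut epithelium stood at 8.36 in the butyrate pool, 8.00 in the propionate pool, 8.21 in the acetate pool and 8.03 in the control pool. The protocadherin Cdhr5, of microvilli in gut, kidney and liver, stood at 9.75 in the butyrate pool, 9.81 in the propionate pool, 9.67 in the acetate pool and 9.71 in the control pool. Cdh17, a cadherin of gut epithelium, stood at 3.93 in the butyrate pool, 3.32 in the propionate pool, 3.27 in the acetate pool and 3.38 in the control pool, within the receptor background throughout. The gene listed as 1810065E05Rik, outside the naming rule, held place 5 by excess of the butyrate pool, with 2.25 on the log2 scale.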
